A study of Mus musculus with 10 samples.

Results

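Nbea and 8 other mouse genes that encode BEACH domain proteins (Nbeal1, Nbeal2, Lrba, Lyst, Wdfy3, Wdfy4, Nsmaf and Wdr81) were examined in LSK cells, the bone marrow fraction without lineage antigens but with Sca-1 and c-Kit, which holds hematopoietic stem and early progenitor cells. The 9 genes were taken by symbol from the 25078 genes of the deposited count table, and all 9 were among the 18747 genes that could be fitted. The set was chosen by the level of Nbea itself, which in CM/miR-126Δ/Δ mice was about 2-fold that of CM mice, so the Nbea difference is given as a description without a test. The other 8 genes were taken as members of its family.

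RNA was sequenced from 5 CM mice (Cbfb 56M/+ /Mx1-Cre) and 5 CM/miR-126Δ/Δ mice (the same alleles with miR-126 flox/flox), with 1 library per mouse. Both genotypes carried the conditional Cbfb-MYH11 (CM) knock-in allele, the fusion of inv(16) acute myeloid leukemia, and both received poly(I:C), which switches on Mx1-Cre in interferon-responsive cells and so is not limited to blood cells. The mice were 6 to 8 weeks old when injected, were of both sexes and on a C57BL/6 background, and were sampled 6 weeks after induction at the pre-leukemic stage. The series has no mice without CM, so what CM itself does to these genes is not measured here. The comparison therefore asks which BEACH genes differ when miR-126 is deleted in cells that express CM.

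BEACH proteins are very large scaffold proteins named after the beige mouse and Chediak-Higashi syndrome. They work in membrane traffic, where they steer the formation, splitting and cargo of endosomes, lysosomes and secretory granules. In blood, family members are known for lysosome-related organelles, platelet granules, recycling of immune receptors and antigen presentation by dendritic cells, whereas Nbea (neurobeachin) is best known from neurons, where it anchors protein kinase A and helps to deliver receptors to synapses.

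Because the genotypes differ by a deleted microRNA, the sequence of miR-126 and its possible pairing with the BEACH transcripts are shown first. Mature miR-126a-3p lies on the plus strand at chr2:26591402-26591423 (GRCm38.p6, RefSeq), and capitals mark its seed, bases 2 to 8.
mmu-miR-126a-3p: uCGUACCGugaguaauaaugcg
A match to bases 2 to 7 of the microRNA reads GGTACG in a transcript. It was sought in the 3′ untranslated region of the GENCODE M1 transcript with the longest coding sequence of each gene, and 2 of the 9 genes, Nbea and Nbeal1, held 1 match each. Both matches are shown with 12 bases on either side, and capitals mark the match to bases 2 to 7. In both, the base after the capitals is a, which could also pair with base 1 of the microRNA (u). Base 1 was not part of the search, and the share of genes with this added base was not computed.
Nbea: aaagggagcgtgGGTACGagggcctggttt
Nbeal1: ccatatcttctaGGTACGaaatgaaatgta
The Nbea match covered bases 801 to 806 of a region of 1699 bases, and the Nbeal1 match bases 3644 to 3649 of a region of 7336 bases. Levels are given in RPKM, reads per kilobase of exon and per 1000000 reads, and a gene whose mean over the 10 mice was 1 RPKM or more is called expressed. Among 9559 expressed genes with an annotated region, 269 (2.81%) held such a 6-base match. None of the 9 genes held the longer match to bases 2 to 8 (CGGTACG), which 18 of the 9559 genes (0.188%) held. A letter match of this kind is not a measured binding site, and longer regions have more chances to hold one.

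Total counts per library were 23649233 to 33202086 in CM and 24141663 to 26615091 in CM/miR-126Δ/Δ mice. The ribosomal precursor Rn45s took 14.8 to 22.6% of counts, the highest share being that of CM/miR-126Δ/Δ mouse 3, which also had the lowest TMM factor (0.922) and the lowest RNA concentration on its label (16.1 ng/ul). By Xist counts, mice 1 to 3 were female and mice 4 and 5 male in both genotypes. Reads on the miR-126 precursor (Mir126a) numbered 4, 5, 0, 2 and 3 in CM mice 1 to 5 and 0 in all 5 CM/miR-126Δ/Δ mice, so at this depth the precursor could not tell CM mouse 3 from the deleted mice, and a count of 0 could not check the genotype of any single mouse, CM/miR-126Δ/Δ mouse 3 included. Its host gene Egfl7 was at 87.8 to 135 CPM (counts per 1000000 counts) in CM and 97.2 to 127 CPM in CM/miR-126Δ/Δ mice. The LSK label fitted Kit, at 702 to 1001 CPM, and Ly6a, which encodes Sca-1, at 43.6 to 70.3 CPM.

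The family spanned a wide range of levels per length. Averaged over the 10 mice, Wdfy4 was the highest at 56.5 ± 5.89 RPKM (SD, n = 10), followed by Nsmaf at 38.2 ± 1.31, Nbeal2 at 32.0 ± 2.66 and Lyst at 19.6 ± 2.64 RPKM. Wdfy3 (14.0 ± 1.73 RPKM) and Lrba (13.5 ± 1.62 RPKM) kept their order in only 7 of the 10 mice, so these neighbours did not differ beyond their spread. Wdr81 at 8.78 ± 1.06, Nbeal1 at 4.79 ± 0.730 and Nbea at 2.81 ± 1.46 RPKM came last. All other neighbours kept their order in 10 of 10 mice. Nbea was thus the lowest member of the family in these cells.

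**Figure D1:**
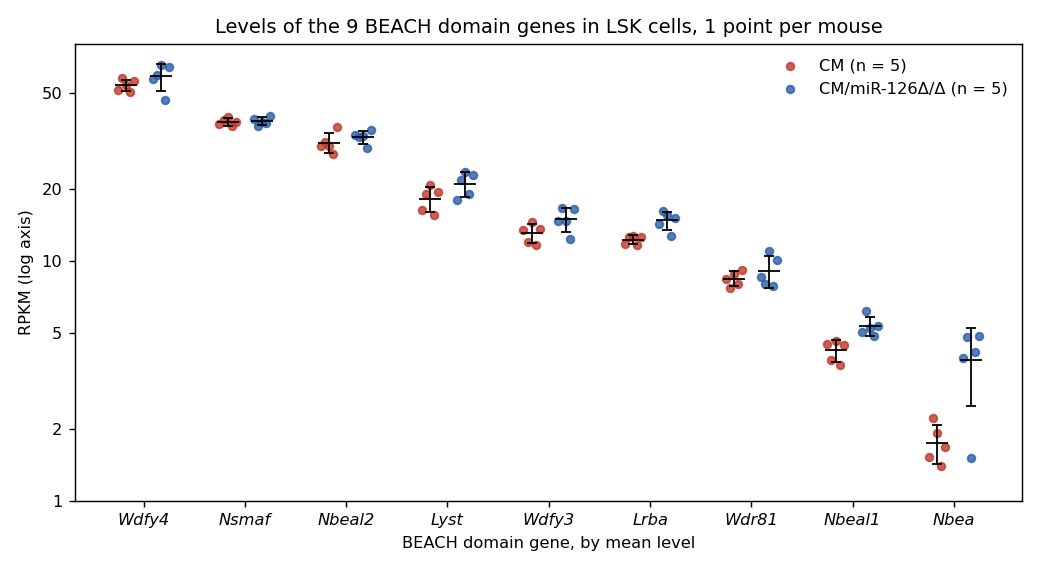
Level of each BEACH domain gene in RPKM (log axis), genes ordered by mean level, with 1 point per mouse for 5 CM and 5 CM/miR-126Δ/Δ mice, the horizontal mark at the mean and bars of 1 SD. Nbea has the widest gap between genotypes and also 1 CM/miR-126Δ/Δ mouse, at 1.51 RPKM, among the CM values.

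Nbea occupies 558504 bases of the minus strand of chromosome 3 (chr3:55625198-56183701, mm10), of which 10983 bases are exonic. In CM mice 1 to 5 its level was 1.52, 2.21, 1.92, 1.40 and 1.68 RPKM, a mean of 1.75 ± 0.324 (SD, n = 5). Its level was higher on average in CM/miR-126Δ/Δ mice, where mice 1 to 5 had 3.96, 4.81, 1.51, 4.19 and 4.87 RPKM, a mean of 3.87 ± 1.37 (SD, n = 5). In 4 of these mice it lay above every CM mouse, whereas in mouse 3 it lay inside the CM range, so the groups overlapped through 1 animal, whose genotype could not be checked from these counts.

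The ratio of the means was 2.21, and the fitted log2 fold change was 1.15 (SE 0.241). Without CM/miR-126Δ/Δ mouse 3 it was 1.35, and without mouse 3 of both genotypes, an alternative added after the data were seen, 1.39 (SE 0.131). Both fits leave out the CM/miR-126Δ/Δ mouse with the lowest Nbea level, so a larger difference with less spread follows from that choice. The values rest on 382 to 1308 reads per library, and mouse 3 had the 382. Nbea was 1 of 36 genes (0.192% of 18747) that were higher by the cutoffs of the study's methods (p of 0.01 or less, 1.5-fold or more, and 1 RPKM or more in either genotype). Because the gene was picked for this difference, nothing is read from that count. In a bulk sample, fewer cells that express a gene and less RNA per cell cannot be told apart.

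Mouse 3 of CM/miR-126Δ/Δ was the library with the highest Rn45s share and the lowest TMM factor, as given above, and the part of these in its low Nbea value was not tested. With Rn45s left out of the library sizes the Nbea log2 fold change over all 10 mice was 1.15 (SE 0.241). That is the contrast between the genotypes, with TMM factors in both fits, and not the level of mouse 3, so it cannot answer this. Wdfy4 (65.9 RPKM), Lyst (23.6 RPKM) and Wdr81 (11.01 RPKM) were each at their highest of the 10 mice in this mouse. Nbeal1 (5.28 RPKM), Nbeal2 (33.1 RPKM), Wdfy3 (14.7 RPKM) and Nsmaf (38.0 RPKM) were at the median of its genotype. Lrba (15.5 RPKM) was above that median.

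The 300 bases around the RefSeq start of Nbea (250 before, 50 after) are shown because its level is the one that differed most in the family. CBFB, the protein altered in both genotypes, is the partner of the RUNX factors, whose core motif was searched as TGTGGT or TGCGGT on both strands, and capitals mark the match. The window is chr3:56183652-56183951 on the minus strand (GRCm38.p6).
Nbea promoter: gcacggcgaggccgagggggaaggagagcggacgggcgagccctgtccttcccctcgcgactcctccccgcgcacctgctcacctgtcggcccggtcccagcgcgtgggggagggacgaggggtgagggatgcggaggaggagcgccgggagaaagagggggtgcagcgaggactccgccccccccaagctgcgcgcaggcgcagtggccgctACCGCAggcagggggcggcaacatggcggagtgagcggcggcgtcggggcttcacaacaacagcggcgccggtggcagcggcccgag
The window held 1 match, TGCGGT on the opposite strand, and 36 CpG dinucleotides, against a median of 7 over 32851 promoters. Of those promoters 7362 (22.4%) held at least 1 such RUNX match, and of the 7 BEACH genes with a promoter sequence 3 did (Nbea, Wdfy4 and Wdr81). The match is a description of letters, and no binding was measured here.

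Other genes lie inside the Nbea span. Mab21l1, on the opposite strand, was counted 0, 6, 1, 1 and 2 times across the CM group and 7, 13, 1, 16 and 6 times in CM/miR-126Δ/Δ mice 1 to 5. Among the latter its count was again lowest in mouse 3. The libraries were stranded, but whether the counting used strand is not given in the sources used here, so reads of Nbea and of genes inside it may not be separable. The gene 4933417G07Rik had 10 to 26 counts per library, with a log2 fold change of -0.24 (SE 0.270), and the microRNA Mir12194 had 1 count in all. These counts are small beside the 382 to 1308 of Nbea.

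Within 1000000 bases on either side of Nbea the table lists 15 other genes. The 5 expressed ones did not share its direction: Exosc8, of the RNA exosome, had a log2 fold change of -0.18 (SE 0.0793), Alg5 -0.11 (SE 0.0858), Rfxap -0.14 (SE 0.112), Supt20 -0.09 (SE 0.0733) and Spg20 -0.03 (SE 0.0714). In edgeR's quasi-likelihood test the unadjusted p was 0.0391 for Exosc8 (adjusted p = 0.748) and above 0.2 for the other 4.

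Over the 10 libraries, 5 of 11531 other expressed genes were named as most like Nbea by Pearson's r of log2 CPM. They were Nnt (r = 0.93), a mitochondrial transhydrogenase, Pisd-ps2 (r = 0.90), a pseudogene, Usp53 (r = 0.89), of the ubiquitin-specific protease family, and the neighbours Trim16 (r = 0.89) and Fbxw10 (r = 0.89) on chromosome 11. These r values use the genotype difference and are a description over 10 libraries. With the genotype means removed they were 0.72 to 0.87. The genes were picked by r over these same libraries, so high values follow in part from that choice. The low Nbea value of CM/miR-126Δ/Δ mouse 3 also stays in them.

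In CM/miR-126Δ/Δ mouse 3, Nnt was at 12.1 RPKM, beside 16.2 to 18.3 in the other 4 mice of that genotype and 10.6 to 12.1 in CM mice. Trim16 was at 10.4 RPKM in that mouse, beside 16.0 to 24.7 in the other 4 and 8.23 to 10.6 in CM mice. Fbxw10 was at 1.29 RPKM there, beside 2.52 to 4.54 in the other 4 and 0.793 to 1.37 in CM mice. The mouse thus lay within or just above the CM range in these 3 genes as well as in Nbea. They were picked for their likeness to Nbea over libraries that included this mouse, so this is not a separate observation. Nnt is known to carry a deletion in some C57BL/6 substrains, and the substrain of each mouse is not given in the sources used here.

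**Figure D2:**
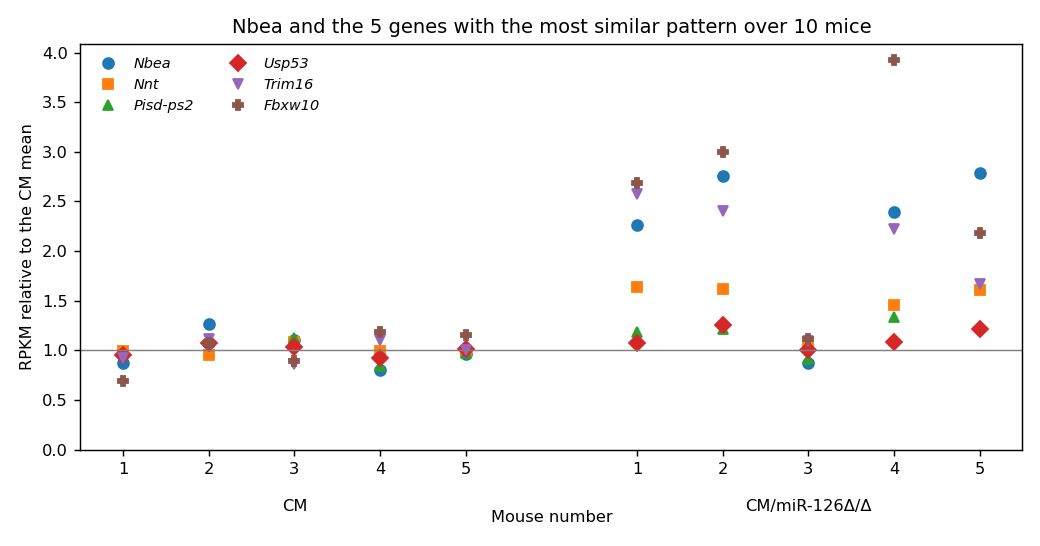
RPKM divided by the CM mean for Nbea and the 5 genes with the most similar pattern, by mouse number within each genotype (linear axis from 0). CM/miR-126Δ/Δ mouse 3 has 0.867 of the CM mean for Nbea and 0.912 to 1.11 for the other 5, while Nbea in the other 4 mice is at 2.27 to 2.79.

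Nbeal1, a neurobeachin-like gene (chr1:60180599-60334705, plus strand), was at 4.51, 3.87, 4.65, 3.67 and 4.48 RPKM in CM mice 1 to 5 and at 5.05, 6.16, 5.28, 4.86 and 5.37 RPKM in CM/miR-126Δ/Δ mice 1 to 5. Every CM/miR-126Δ/Δ mouse, mouse 3 included, lay above every CM mouse. The means were 4.24 ± 0.437 and 5.34 ± 0.496 (SD, n = 5 each), and the log2 fold change was 0.33 (SE 0.0801). In edgeR's quasi-likelihood test the unadjusted p was 0.000921 and the Benjamini-Hochberg adjusted p over all fitted genes was 0.514.

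Lrba, which rescues the immune checkpoint receptor CTLA4 from lysosomal breakdown, lies on the plus strand of chromosome 3 (chr3:86224690-86782694), the chromosome of Nbea. Its level was 11.8, 12.6, 12.7, 11.6 and 12.5 RPKM in CM mice 1 to 5 and 14.3, 16.2, 15.5, 12.8 and 15.1 RPKM in CM/miR-126Δ/Δ mice 1 to 5. The groups did not overlap, though the lowest CM/miR-126Δ/Δ mouse and the highest CM mouse were nearly equal. The means were 12.3 ± 0.518 and 14.8 ± 1.31 (SD, n = 5 each), and the log2 fold change was 0.27 (SE 0.0658, unadjusted p = 0.00114, adjusted p = 0.514, edgeR's quasi-likelihood test). With DESeq2 the adjusted p was 0.0423, the only setting of those tried in which it fell under 0.05. The opposite-strand gene Mab21l2, inside Lrba, had 0 to 30 counts per library, beside 3583 to 4610 for Lrba.

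Lyst and Wdfy3, genes of lysosomes and autophagy, came next. Lyst, the beige gene, which limits the size of lysosome-related granules, was at 16.3, 19.0, 20.8, 15.6 and 19.4 RPKM in CM mice and at 17.9, 21.8, 23.6, 19.0 and 22.7 RPKM in CM/miR-126Δ/Δ mice. The groups overlapped, with a log2 fold change of 0.21 (unadjusted p = 0.0476, adjusted p = 0.753, edgeR). Wdfy3 (also called Alfy), an adaptor that brings protein aggregates to autophagosomes, was at 13.5, 11.96, 14.5, 11.7 and 13.6 RPKM in CM mice and at 14.7, 16.6, 14.7, 12.3 and 16.5 RPKM in CM/miR-126Δ/Δ mice. These groups overlapped through mouse 4, and the log2 fold change was 0.20 (SE 0.0865, unadjusted p = 0.0385, adjusted p = 0.748, edgeR).

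The remaining 4 genes had p above 0.2 in the same test. Wdfy4, needed by dendritic cells to cross-present antigens, was at 50.6 to 57.8 RPKM in CM and 47.1 to 65.9 RPKM in CM/miR-126Δ/Δ mice, with a log2 fold change of 0.12 (SE 0.0914). Wdr81, which acts on endosomal phosphatidylinositol 3-kinase, was at 7.72 to 9.21 and 7.87 to 11.01 RPKM, with a log2 fold change of 0.11. Nbeal2, the gray platelet syndrome gene that platelets need to form alpha granules, was at 27.9 to 36.2 and 29.5 to 35.3 RPKM, with a log2 fold change of 0.08. Nsmaf (FAN), the adaptor between TNF receptor 1 and neutral sphingomyelinase, was at 36.6 to 39.9 and 36.6 to 40.3 RPKM, with a log2 fold change of 0.01. In all 4 the groups overlapped.

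Of the 8 genes other than Nbea, 4 (Nbeal1, Lrba, Lyst and Wdfy3) were higher at an unadjusted p at or below 0.05 and none was lower. None had an adjusted p under 0.05 in edgeR, where 2 of 18747 genes (0.0107%) did. Among 11532 expressed genes, 382 (3.31%) were higher and 514 (4.46%) lower at that unadjusted p. Nbeal1 and Lrba were the 2 of the 8 in which all 5 CM/miR-126Δ/Δ mice lay above all 5 CM mice, as they did in 70 of the 11532 genes (0.607%).

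This count has to be read against gene length. The share of expressed genes higher in CM/miR-126Δ/Δ mice was 37.2% for exon lengths under 1 kb, 23.8% from 1 to 2 kb, 35.6% from 2 to 4 kb, 54.4% from 4 to 6 kb, 71.9% from 6 to 8 kb, 86.4% from 8 to 12 kb and 92.7% above 12 kb. All BEACH genes but Nsmaf (3506 bases) have 6909 to 14277 bases of exon. All 9 were above 0 on the log2 scale, but so were 77.8% of the 1456 genes of at least 6 kb, beside 42.2% of all 11532. Among those 1456 long genes, 134 (9.2%) were higher at an unadjusted p at or below 0.05, and in 20 (1.37%) all 5 CM/miR-126Δ/Δ mice lay above all 5 CM mice.

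With the trend of the log2 fold change on exon length removed, Nbeal1 was at 0.22 (unadjusted p = 0.0149) and Lrba at 0.16 (unadjusted p = 0.0281), while Lyst fell to 0.10 (unadjusted p = 0.326) and Wdfy3 to 0.07 (unadjusted p = 0.456) in edgeR's quasi-likelihood test. Thus 2 of the 8 genes kept an unadjusted p at or below 0.05, and neither had an adjusted p under 0.05. In that fit 348 of the 11532 expressed genes (3.02%) and 42 of the 1456 long ones (2.88%) were higher at the same unadjusted p. The trend at the exon length of Nbea was 0.10, and the Nbea log2 fold change was 1.05 (SE 0.241) without it. Mice were left out only in the fit that kept the length trend. There the unadjusted p of Nbeal1 and Lrba stayed at or below 0.05 with every mouse left out in turn. That of Lyst and Wdfy3 was above it when CM mouse 4 was left out (adjusted p = 0.842 for both), when CM/miR-126Δ/Δ mouse 2 was (adjusted p = 0.906 for both) or when CM/miR-126Δ/Δ mouse 5 was (adjusted p = 0.862 for both, edgeR). For Lyst it was also above 0.05 without CM mouse 1 (adjusted p = 0.841) or CM/miR-126Δ/Δ mouse 3 (adjusted p = 0.789), and for Wdfy3 without CM mouse 2 (adjusted p = 0.786, edgeR). Why the difference between genotypes followed exon length was not tested.

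**Figure D3:**
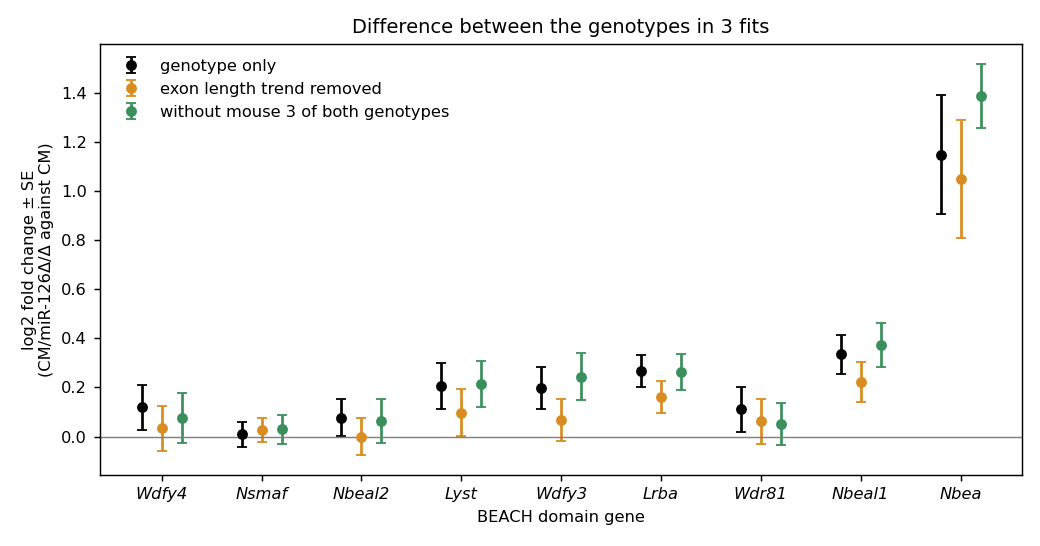
Log2 fold change of each BEACH domain gene between CM/miR-126Δ/Δ and CM mice (points, bars of 1 SE) with genotype as the only term, with the exon length trend removed and without mouse 3 of both genotypes. Nbea stands at 1.05 to 1.39 in the 3 fits, and the other 8 lie at or below 0.37. The fit without mouse 3 was added after the data were seen and leaves out the lowest CM/miR-126Δ/Δ value of Nbea, so its larger Nbea difference follows from that choice.

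**Figure D4:**
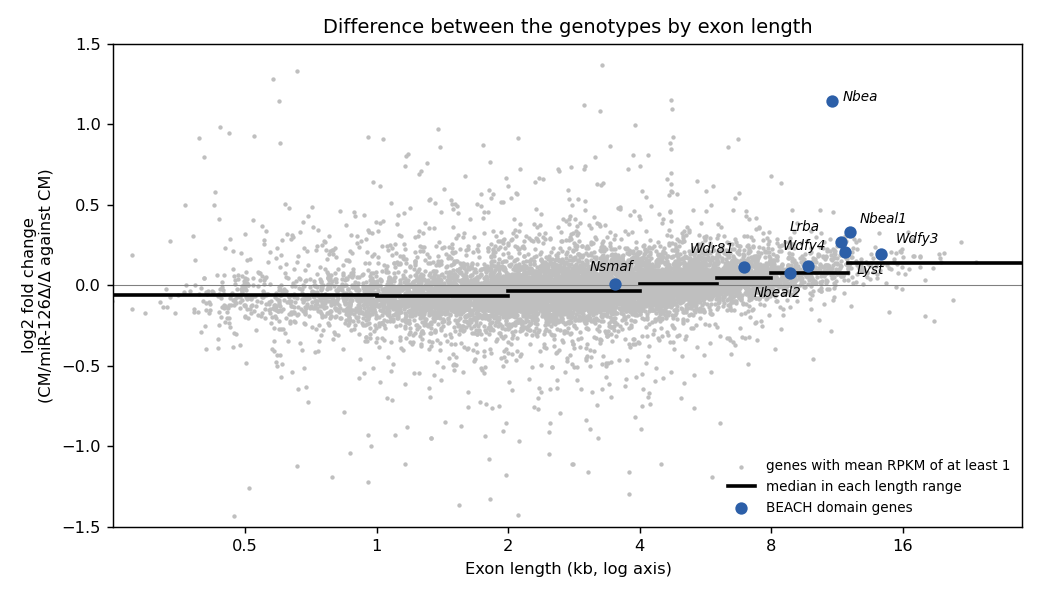
Log2 fold change against exon length (log axis) for expressed genes, with the median in each length range as a black line and the 9 BEACH domain genes in blue (336 genes lie outside the axes). The medians run from -0.07 at 1 to 2 kb to 0.14 above 12 kb, and Nbea is far above the line for its length.

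Whether the genes moved together from mouse to mouse was asked with the genotype means removed, so that the difference between these means played no part. The gap between CM/miR-126Δ/Δ mouse 3 and the rest of its genotype stayed in the Nbea values. Over 36 pairs, Pearson's r was positive in 32, and 6 pairs had an unadjusted p at or below 0.05 (exact permutation of mice within genotype). No pair had an adjusted p under 0.05 by Pearson's r. Nbeal1 and Wdfy3 came closest, with r = 0.86 (exact permutation p = 0.00215, adjusted p = 0.0775) and Spearman's rho = 0.94 (exact permutation p = 0.000278, adjusted p = 0.01). Without the 2 mice farthest from the median r was 0.84. All 28 pairs without Nbea were positive, with a median r of 0.53. Without the 2 mice farthest from the median, these pairs had a median r of 0.47 and a lowest r of -0.197. The share of positive pairs among other expressed genes was not computed. The long exons shared by most of these genes are a common property whose part in these correlations was not tested. The 8 pairs with Nbea ran from -0.60 (with Wdr81) to 0.27, with a median of 0.02, and none had an unadjusted p at or below 0.05. The pair with Wdr81 had exact permutation p = 0.132 (adjusted p = 0.317) and rho = -0.38 (exact permutation p = 0.365, adjusted p = 0.575). Without the 2 mice farthest from the median, r with Wdr81 was -0.249 and the median of the 8 pairs was 0.12.

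The sexes were compared by the interaction of genotype and sex. For Nbea, the difference of mean log2 CPM between the genotypes was 0.72 in the 3 females and 1.55 in the 2 males of each genotype. CM/miR-126Δ/Δ mouse 3 is a female. These are differences of means and not fitted log2 fold changes, and the fitted interaction of Nbea (male minus female) was 0.69. No BEACH gene had an interaction with an adjusted p under 0.05 (edgeR's quasi-likelihood test), and none had an unadjusted p at or below 0.05. Among all fitted genes, 481 had an unadjusted p at or below 0.05 and 1 an adjusted p under 0.05.

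The partners of the family were looked at through lists written for each known role, of which the expressed genes were counted at an unadjusted p at or below 0.05, where 3.31% of all expressed genes were higher and 4.46% lower. For Nbea, 13 of 20 protein kinase A subunits and anchoring proteins were expressed, and 0 were higher and 0 lower, with a median log2 fold change of -0.03. The regulatory subunit Prkar2b, which type II anchoring proteins bind, was at 38.7 RPKM in CM and 35.8 RPKM in CM/miR-126Δ/Δ mice. For Lyst, 24 of 25 genes of lysosome-related organelles were expressed, and 0 changed in either direction (median 0.00). For Nbeal2, 9 of 10 alpha granule genes were expressed, and again 0 were higher or lower (median 0.04).

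For Wdfy3, 18 of 18 selective autophagy genes were expressed and 1 was higher (3.31% of all expressed genes were), Rb1cc1 (FIP200), a scaffold of the autophagy-initiating kinase, with a log2 fold change of 0.16 (unadjusted p = 0.0206, adjusted p = 0.746, edgeR). Rb1cc1 has 7046 bases of exon, and 9.2% of expressed genes of at least 6 kb were higher at that cutoff. For Wdr81, 11 of 11 genes of the class III phosphatidylinositol 3-kinase were expressed, and 1 was higher and 1 lower. The catalytic subunit Pik3c3 was at 21.5 RPKM in CM and 23.8 RPKM in CM/miR-126Δ/Δ mice (log2 fold change 0.14, unadjusted p = 0.0150), and its regulator Becn1 at 37.4 and 34.1 RPKM (log2 fold change -0.13, unadjusted p = 0.0207, adjusted p = 0.746, edgeR). For Nsmaf, 10 of 11 TNF receptor 1 and sphingomyelinase genes were expressed, with 0 higher and 0 lower (median -0.05).

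For Lrba, 3 of 6 genes of its cargo and recycling route were expressed and 1 was lower, Icos, a T cell costimulatory receptor, at 2.35 RPKM in CM and 1.85 RPKM in CM/miR-126Δ/Δ mice (log2 fold change -0.34, unadjusted p = 0.0191, adjusted p = 0.746, edgeR). Ctla4 itself, at 0.434 and 0.343 RPKM, was below 1 RPKM in both genotypes. Beside these lists, the median over all expressed genes was -0.02.

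Markers of other cells were read beside these values, because Wdfy4 is a dendritic cell gene and Nbea a neuronal one. Of 8 neuron markers none was expressed, their summed level was 0.403 to 0.759 CPM in CM and 0.288 to 0.929 CPM in CM/miR-126Δ/Δ mice, and Syt1, Stmn2 and Nefl were at 0 in every library. Of 8 dendritic cell markers 3 were expressed, summing with the rest to 357 to 515 CPM in CM and 375 to 505 CPM in CM/miR-126Δ/Δ mice. Most of that sum was Flt3, which LSK cells also express (343 to 497 and 359 to 492 CPM), and the other 7 summed to 14.2 to 23.9 CPM in CM and 9.10 to 16.4 CPM in CM/miR-126Δ/Δ mice. Siglech (log2 fold change -0.91, unadjusted p = 0.00463) and Itgax (log2 fold change -0.59, unadjusted p = 0.00422) were lower (adjusted p = 0.637 and 0.623), while Wdfy4 had an unadjusted p of 0.210 (adjusted p = 0.765, edgeR).

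Of 8 LSK markers 2 were higher (beside 3.31% of all expressed genes), Hlf (log2 fold change 0.31, unadjusted p = 0.00797, adjusted p = 0.661) and Mecom (log2 fold change 0.24, unadjusted p = 0.0393, adjusted p = 0.748, edgeR), both transcription factors of stem cells. Hlf has 5665 and Mecom 6778 bases of exon. Among expressed genes of at least 6 kb the share higher at that cutoff was 9.2%. Itgam, a myeloid antigen used to deplete lineage cells, was lower (log2 fold change -0.35, unadjusted p = 0.0316, adjusted p = 0.746, edgeR), and 2 other depleted lineage antigens of the 9 were expressed. The 9 lineage antigens summed to 84.8 to 168 CPM in CM and 74.9 to 95.1 CPM in CM/miR-126Δ/Δ mice. The part of these marker differences in the values of the BEACH genes was not tested. The megakaryocyte list, which bears on Nbeal2, had 0 of 6 expressed markers higher or lower and summed to 175 to 259 CPM in CM and 141 to 232 CPM in CM/miR-126Δ/Δ mice.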

How the data were processed

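Each of the 10 mice, 5 per genotype, gave 1 RNA library from LSK cells. The submitters' processing notes name bcl2fastq 2.18.0.12, TopHat2 and HTSeq 0.6.1p1 with mm10. The authors deposited whole-number counts per RefSeq gene without normalization, with positions and exon lengths. Their normalized table, each count divided by 1 constant per library, was not used. Whether counting used strand is not given in the sources used here.

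The 18747 genes with 1 count or more were tested for genotype with edgeR 4.0.16 under R 4.3.3, using TMM factors and the two-sided quasi-likelihood F-test as edgeR 3 ran it, with Benjamini-Hochberg adjustment over all of them. RPKM used the exon length and the library size after TMM scaling, and correlations used log2 CPM with a prior count of 2. DESeq2 1.42.0 was an alternative. The edgeR test was checked on simulated data with 200 changed genes. No libraries were duplicates (lowest chi-square per degree of freedom 9.99).

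Genes named were all 9 members, list genes at an unadjusted p at or below 0.05, the 5 genes most like Nbea, overlapping and neighbouring genes and the deletion check. Prkar2b and Ctla4 were named after their values were seen, as were the 6 kb limit and the neighbours of Nbea. The members and lists were chosen with earlier results of these data known. Seed matches used GENCODE M1 sequences (mm9) without coordinates, and promoters came from RefSeq (GRCm38.p6, 7 of 9 genes). A 3-count limit, covering counting error only, was 0.0908 to 0.131 CPM. Other marker lists (B cell, T and NK cell, granulocyte and monocyte, erythroid, mast cell and basophil, endothelial and stromal) had 0 genes higher and only Itgam lower. Python 3.11.15 and matplotlib 3.10.9 drew the plots.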

Additional observations from a re-analysis of the deposited data

Results flagged for a closer look

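Nbea at 1.51 RPKM in CM/miR-126Δ/Δ mouse 3 lay far below the other 4 mice of its genotype, and the gap to the nearest of them was 0.728 of the group's whole range, above Dixon's critical value for 5 samples. It was the only such value among 18 groups (9 genes in 2 genotypes), where chance gives about 0.9, so 1 such value is close to what chance gives. It is also among the values by which Nbea was chosen, and is given as a description. The same library had the highest Rn45s share, and the part of this in the value was not tested.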

How the results depend on the processing

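The Nbea log2 fold change was 0.98 to 1.39 over 23 alternatives and kept its direction in each. The log2 fold changes of Nbeal1, Lrba, Lyst, Wdfy3, Wdfy4 and Wdr81 also kept their direction in all 23. Nbeal2 was at -0.00 (-0.000543) with the length trend removed, and Nsmaf ran from -0.0106 (without CM/miR-126Δ/Δ mouse 5) to 0.0395 (without CM mouse 3) with 1 mouse left out, for which the cause was not tested. The 4 BEACH genes other than Nbea at an unadjusted p at or below 0.05 became 2 with the length trend removed, and 2 to 5 with 1 mouse left out. The share of all expressed genes at that p was not computed with a mouse left out. Over all genes, 54 were called by the cutoffs of the study's methods, 111 with no requirement on RPKM, 109 without mouse 3 of both genotypes (added after the data were seen) and 33 (without CM/miR-126Δ/Δ mouse 5) to 128 (without CM mouse 3) with 1 mouse left out. Without CM/miR-126Δ/Δ mice 1 or 4 the count was 85 or 94. Among correlated pairs, Spearman's rho gave 1 with an adjusted p under 0.05 where Pearson's r gave 0.

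The mice share replicate numbers but no stated pairing. Same-numbered mice correlated at -0.00 to 0.43, and not every mouse correlated best with its own number, so the numbers were not taken to pair them. Same-numbered libraries do match in sex and carry adjacent sample numbers, and whether they shared a batch was not tested. With the replicate number as a replicate block 115 genes were called, and 118 with the length trend also removed, where 2 BEACH genes other than Nbea had an unadjusted p at or below 0.05. Under the replicate block the Nbea log2 fold change was 1.08 (SE 0.217), and 20 genes in place of 2 had an adjusted p under 0.05. In that fit 4 BEACH genes other than Nbea had an unadjusted p at or below 0.05 in edgeR's quasi-likelihood test. Among them were Lrba (unadjusted p = 0.000289, adjusted p = 0.0977) and Lyst (unadjusted p = 0.00155, adjusted p = 0.186). The share of all expressed genes at that unadjusted p was not computed under the replicate block, with or without the length trend. Nothing is therefore read from these counts of BEACH genes.

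Mean RPKM moved by more than 1 SD in 17 of 216 recomputed values, all with Rn45s left out of the library size. Depth limits the miR-126 precursor, at 5 counts or fewer, and the genes nested in Nbea and Lrba.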
